A study of Mus musculus with 32 samples.

Results

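Levels of 7 genes were described in the brain arteries of 32 mice: *Gbp2b*, *Oca2*, *Olfr1372-ps1*, *C130026I21Rik*, *Gm13443*, *Gm34829* and *Nnt*. They are 7 of the 55357 genes counted and were selected on their levels in these same libraries, for large differences between cohorts or lines that could mark strain background. The selection did not record which contrast picked which gene, so their group differences are given as descriptions, with fitted values and standard errors (SE) but no test. Tests are kept for genes chosen by position or by function: the 10 tested genes on each side of each of the 7 (140 neighbours) and 62 genes of related function. The genes of related function were listed with earlier results of these data known.

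The study profiled 4 groups of 8 mice, with each library made from a different mouse. Animals lacking functional *Notch3*, the *Notch3-/-* group, were 3 months old, as were the *Notch3+/+* controls. Tg*Notch3R169C* mice, which carry a mutant rat *Notch3* on an artificial chromosome in addition to their own gene, and their WT controls were 12 months old. The lines were bred onto C57BL/6, and the transgenic line had been made on FVB/N. Mice of the first age and line are called the 3-month cohort below and the others the 12-month cohort. Between the cohorts, age, line and any difference in dissection or sequencing cannot be told apart. The paper calls the controls age-matched littermates of the mutants, but the labels do not give litters or sex for each mouse.

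Inbred laboratory strains differ at many loci in whether a gene is transcribed, in how many copies of it there are, and in which pseudogenes are present. A mouse that still carries a stretch of another strain after breeding therefore can show a gene on or off from one animal to the next. Among the genes described here, *Gbp2b* encodes an interferon-inducible guanylate-binding GTPase of cell-autonomous immunity whose induction is known to differ between inbred strains. *Oca2* encodes a melanosome membrane protein and is the pink-eyed dilution locus. *Nnt* encodes the mitochondrial transhydrogenase that makes NADPH, and the C57BL/6J substrain is known for a deletion in it. *Gm13443* is a processed pseudogene of *Glo1*, the enzyme glyoxalase 1 that detoxifies methylglyoxal. *Olfr1372-ps1* is a transcribed olfactory receptor pseudogene, *Gm34829* a long intergenic noncoding RNA, and *C130026I21Rik* a gene of the Sp100 nuclear body locus.

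Library totals ranged from 20289487 to 54481934 counts. The targeted gene, *Notch3*, ranged in CPM (counts scaled to the normalised library size) from 65.8 to 98.1 among *Notch3+/+* and from 13.7 to 18.5 among *Notch3-/-* mice. It was 60.1 to 85.0 CPM in WT and 108 to 219 CPM in Tg*Notch3R169C* mice. The smooth muscle marker *Acta2* was 293 to 1215 CPM in the 32 libraries. In 7 libraries, 1 *Notch3-/-*, 4 WT and 2 Tg*Notch3R169C*, the choroid plexus transcript *Ttr* was above 1000 CPM, at 7895 to 23151 CPM, against 14.0 to 329 CPM in the other 25. Results that move with these 7 libraries are given with and without them.

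The on-off description held for part of the 7 genes. *Gm13443* separated *Notch3-/-* mice from each of the other 3 groups. *Gbp2b* was high in 11 of the 16 mice aged 3 months and low in the other 5 and in the 16 mice aged 12 months, so it split the 3-month groups instead of separating the cohorts. *Oca2* was high in 7 mice of 3 groups. *C130026I21Rik* and *Olfr1372-ps1* differed between the cohorts by degree, *Gm34829* was highest in *Notch3+/+* mice, and *Nnt* was low in every group with overlapping ranges.

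By groups compared, ranges did not overlap for 2 of the 7 genes in *Notch3-/-* against *Notch3+/+* mice (*Gm13443* and *Gm34829*), where 0.649% of 17714 genes tested were called at an adjusted p below 0.05 (edgeR). They overlapped for all 7 in Tg*Notch3R169C* against WT mice, where 0.113% of 17731 genes were called. In WT against *Notch3+/+* mice 3 did not overlap (*Olfr1372-ps1*, *C130026I21Rik* and *Gm34829*), where 7.92% of 17643 genes were called. In Tg*Notch3R169C* against *Notch3-/-* mice 2 did not (*C130026I21Rik* and *Gm13443*), where 3.82% of 17865 genes were called. The difference between the 2 mutant effects was called for 0.35% of 18555 genes. The share called is another measure than range overlap, and the share of all genes without overlap was not computed. Nothing about the 7 genes is read from these counts, because they were selected on such differences, and the 4 comparisons share groups.

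**Figure D1:**
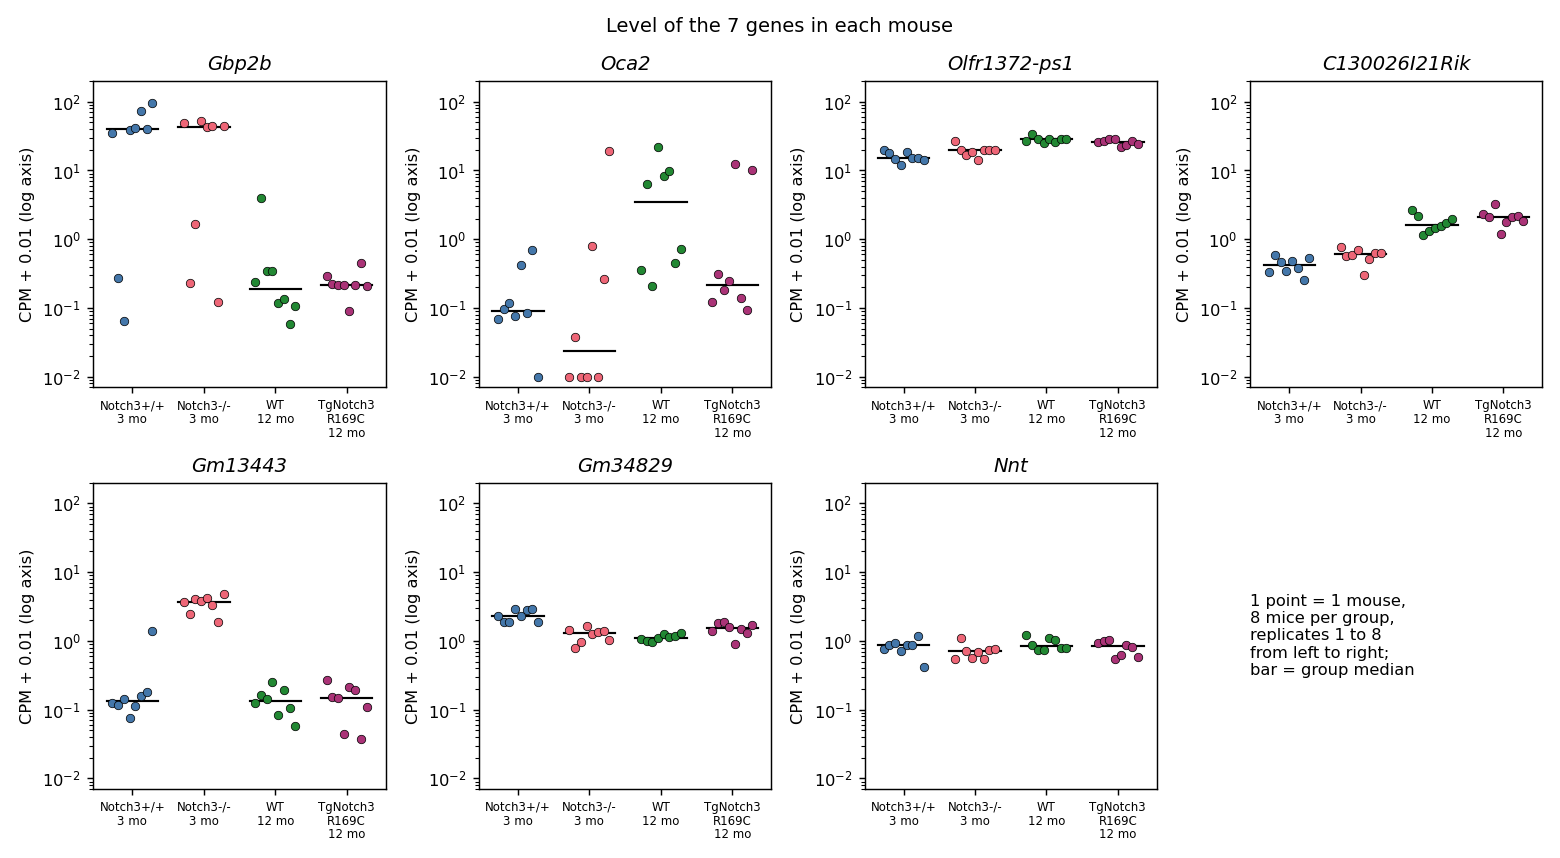
CPM plus 0.01 on a log axis for each of the 7 genes, 1 point per mouse and 8 mice per group, with bars at the group medians. *Gbp2b* and *Oca2* fall into high and low mice inside groups, *Gm13443* is high in all 8 *Notch3-/-* mice, and *Nnt* lies between 0.406 and 1.22 CPM throughout.

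*Gbp2b* (ENSMUSG00000040264, chromosome 3) ranged from 0.0484 to 97.2 CPM between mice. In *Notch3+/+* mice it was lowest at 0.0540, median 39.6 and highest at 97.2 CPM. In *Notch3-/-* mice it was lowest at 0.113, median 43.2 and highest at 52.4 CPM. In both groups the values fell apart inside the group, with *Notch3+/+* replicates 2 and 3 at 0.258 and 0.0540 CPM and *Notch3-/-* replicates 2, 3 and 7 at 0.221, 1.68 and 0.113 CPM, while the remaining 3-month mice were at or above 35.5 CPM. In WT mice it was lowest at 0.0484, median 0.176 and highest at 3.99 CPM, and in Tg*Notch3R169C* mice lowest at 0.0818, median 0.207 and highest at 0.446 CPM. The groups thus ordered *Notch3-/-*, *Notch3+/+*, Tg*Notch3R169C* and WT by their medians, and the ranges of each adjacent pair overlapped. The fitted log2 fold change of WT against *Notch3+/+* mice was −5.75 (SE 1.11), and that of *Notch3-/-* against *Notch3+/+* mice was −0.47 (SE 1.01), which turned to 0.58 with the mean of 6 smooth muscle markers as a covariate. Without WT replicate 2 the first was −7.74. *Gbp2b* did not pass the count filter in either comparison that involves Tg*Notch3R169C* mice, although its median in *Notch3-/-* mice was 43.2 CPM.

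*Gbp2*, its most similar gene at 83.8% identity over 1709 aligned transcript bases, was 93.9 to 121 CPM in *Notch3+/+*, 110 to 135 in *Notch3-/-*, 94.2 to 201 in WT and 84.7 to 140 in Tg*Notch3R169C* mice. *Gbp3* was 44.2 to 122 CPM over all 32 mice. No mouse had either gene near 0, including the mice in which *Gbp2b* was. WT replicate 2, the 12-month mouse with the highest *Gbp2b* at 3.99 CPM, also had the highest *Gbp2* of the 32 mice at 201 CPM and the highest *Gbp10* at 7.46 CPM. None of the transcripts of other genes matched *Gbp2b* at 98% identity or more over at least 100 bases.

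The stretches before the start of *Gbp2b* and of *Gbp2* are shown because both hold the core letters of an interferon-stimulated response element while the genes differ so much in level. The sequences are the 250 bases before the start in RefSeq, build GRCm38.p6, plus strand of chromosome 3, and capitals mark TTTC, any 2 bases and TTTC, which on the opposite strand read GAAA, any 2 bases and GAAA. These were the only letters searched for, on both strands.
Gbp2b: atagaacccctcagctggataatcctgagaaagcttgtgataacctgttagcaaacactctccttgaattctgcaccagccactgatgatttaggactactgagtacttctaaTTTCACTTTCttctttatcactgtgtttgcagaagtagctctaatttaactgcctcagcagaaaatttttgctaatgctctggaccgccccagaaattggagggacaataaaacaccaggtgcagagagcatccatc
Gbp2: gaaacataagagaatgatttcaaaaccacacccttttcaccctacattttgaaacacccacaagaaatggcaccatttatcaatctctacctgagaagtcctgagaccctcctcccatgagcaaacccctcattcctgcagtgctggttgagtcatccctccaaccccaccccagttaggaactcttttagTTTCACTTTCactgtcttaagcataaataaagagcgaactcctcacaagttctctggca
The match begins 137 bases before the start of *Gbp2b* and 59 bases before that of *Gbp2*. All 5 guanylate-binding protein genes with an entry (*Gbp2b*, *Gbp2*, *Gbp3*, *Gbp5* and *Gbp7*) hold the letters, against 2.98% of 32851 promoters of the same length. Of the 7 genes described, 4 have an entry, and the letters are not in those of *Oca2*, *C130026I21Rik* and *Gm34829*. These are reference sequences, and the sequence that each mouse carries was not read.

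The genes whose log2 CPM was most like that of *Gbp2b* over the 32 mice were *Gm3608* (Pearson r = 0.905, Spearman rho = 0.707), *Hist1h2al* (r = 0.884) and *Gm5900* (r = 0.882). After each group's mean was taken away, they were *Gm3608* (r = 0.822), *Cfi* (r = 0.822) and *Hist1h2al* (r = 0.784). Likeness is a description over 32 mice that share libraries and, before the means are removed, group structure. *Cfi*, the complement factor I gene, lies on chromosome 3 as well, 69 tested genes away. Its highest level was 1.84 CPM among *Notch3+/+* mice, 3.71 CPM among *Notch3-/-* mice and 0.338 CPM in the 12-month mice.

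Chromosome 3 recurred among the genes most like *Gbp2b*. Of the 50 with the highest absolute r over all mice, 21 lie on chromosome 3, which holds 5.16% of the genes compared. On deviations from group means it was 27 of 50, of which 14 went the same way as *Gbp2b* and 13 the opposite way. They lay at a median of 153 and up to 703 tested genes from *Gbp2b*, and 12 of the 27 lay within 100 tested genes of it, a window that holds 18.8% of the tested genes of the chromosome. The 20 nearest tested genes had a median absolute r of 0.144 on deviations, against 0.14 over all genes, and the most alike of them was *Gm43162* at 0.664.

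*Gm13443* (ENSMUSG00000075391, chromosome 2) was the clearest difference between *Notch3-/-* mice and the other groups. It was lowest at 1.90, median 3.73 and highest at 4.81 CPM in *Notch3-/-* mice, from 67 to 157 counts. In *Notch3+/+* mice it was lowest at 0.0668, median 0.126 and highest at 1.37 CPM. All 8 *Notch3-/-* mice were above every *Notch3+/+* mouse, among which replicate 8 stood apart at 1.37 CPM from the next at 0.172 CPM. WT mice had a lowest of 0.0482, a median of 0.123 and a highest of 0.240 CPM, and Tg*Notch3R169C* mice 0.0279, 0.139 and 0.256 CPM, on 1 to 9 counts per library. Among *Notch3+/+*, WT and Tg*Notch3R169C* mice the ranges overlapped, and their medians did not differ beyond the spread. The fitted log2 fold change was 3.69 (SE 0.52) for *Notch3-/-* against *Notch3+/+* mice and −4.66 (SE 0.32) for Tg*Notch3R169C* against *Notch3-/-* mice. Without *Notch3+/+* replicate 8 the first was 4.82.

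Reads of *Gm13443* are close to those of its parent gene, so a stretch of both is set side by side. In GENCODE vM21 the 555 bases of *Gm13443* match the 555 coding bases of *Glo1* at 552 positions (99.5%). Positions count from 1 at the A of the *Glo1* start codon, the *Glo1* base is given first, and 1 of the 3 differences is T225C. Capitals mark that base in bases 201 to 250, the stretch shown.
Glo1 201 to 250: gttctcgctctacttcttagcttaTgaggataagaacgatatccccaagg
Gm13443 201 to 250: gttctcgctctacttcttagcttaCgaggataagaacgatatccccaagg
Of the 456 stretches of 100 bases in this alignment, 281 (61.6%) are identical in both. How reads that fit both places were counted is not given in the sources used here, so counts of *Gm13443* and *Glo1* could be split between them.

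*Glo1*, on chromosome 17, moved with its pseudogene and was tested as 1 of the related genes. Its level was lowest at 56.4, median 64.7 and highest at 83.5 CPM in *Notch3+/+* mice, and lowest at 86.8, median 118 and highest at 152 CPM in *Notch3-/-* mice. The 2 ranges did not overlap, and the *Notch3+/+* mouse with the highest *Glo1* was replicate 8, the mouse with the highest *Gm13443* of its group. WT mice had 59.3 to 82.2 CPM and Tg*Notch3R169C* mice 55.0 to 72.3 CPM. *Glo1* rose in *Notch3-/-* against *Notch3+/+* mice by 0.84 on the log2 scale, with an SE of 0.09 and an adjusted p of 0.000188 (edgeR's quasi-likelihood test with Benjamini-Hochberg adjustment), and each of 16 fits without 1 mouse kept the call. With the mean of 6 smooth muscle markers as a covariate the adjusted p was 0.076. In Tg*Notch3R169C* against *Notch3-/-* mice *Glo1* was lower by −0.94 on the log2 scale (SE 0.09, adjusted p = 2.61e-05). The mutant effects of the 2 cohorts differed for *Glo1* by −0.95 on the log2 scale, Tg*Notch3R169C* minus WT less *Notch3-/-* minus *Notch3+/+*, a call of the interaction test.

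Chromosome 17 held most of the genes whose pattern was like that of *Gm13443*. The nearest over 32 mice were *AC165951.1* (r = 0.967, chromosome 17), *Hmga1b* (r = 0.95, chromosome 11) and *Glo1* (r = 0.933). On deviations from group means they were *Hmga1b* (r = 0.755), *AC165951.1* (r = 0.732) and *Hspa9-ps1* (r = 0.712, X chromosome). Of the 50 most alike genes over all mice, 31 lie on chromosome 17, which holds 4.86% of the genes compared and also *Notch3*, 25 tested genes from *Glo1*. Of the 31, 19 were higher and 12 lower where *Gm13443* was higher. They lay at a median of 168 and up to 361 tested genes from *Notch3*, with 9 within 100 tested genes of it, a window that holds 22.2% of the tested genes of the chromosome. On deviations from group means 7 of the 50 lay on chromosome 17. Chromosome 2, where *Gm13443* itself is annotated, held 2 of the 50 over all mice against 7.52% of genes compared.

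**Figure D2:**
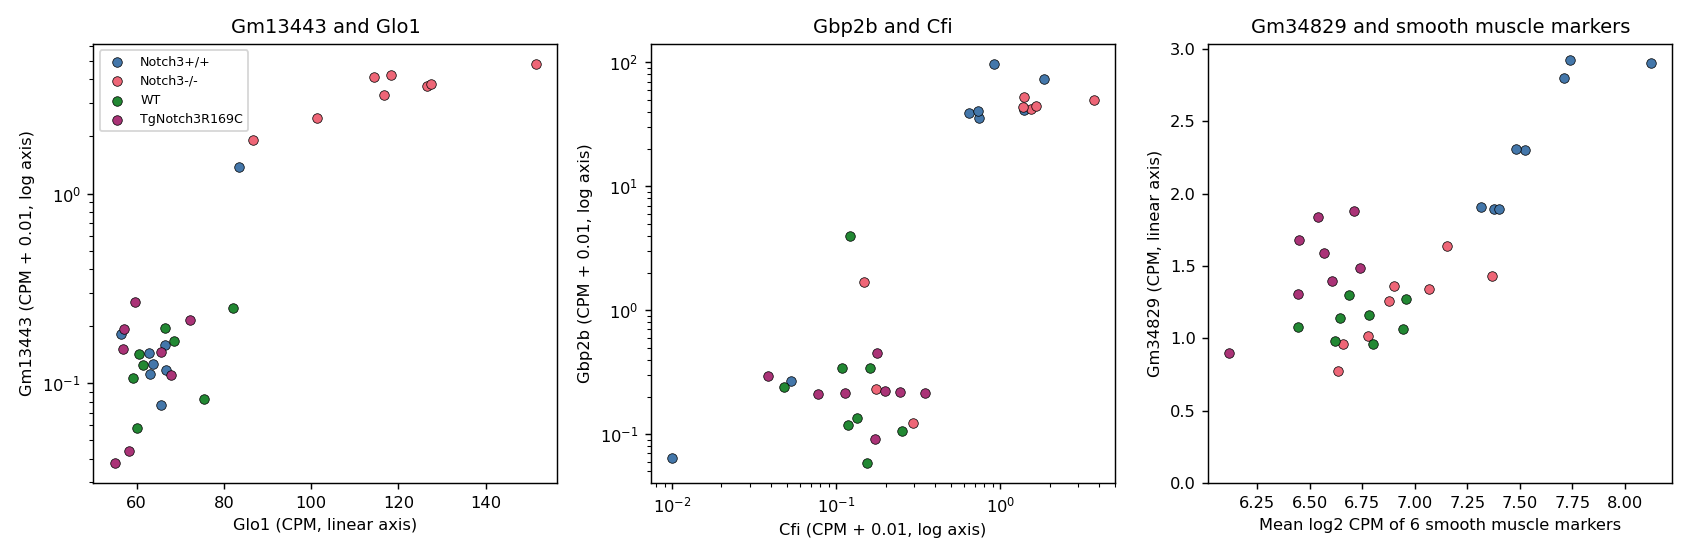
Level of *Gm13443* against *Glo1*, of *Gbp2b* against *Cfi*, and of *Gm34829* against the mean log2 CPM of 6 smooth muscle markers, 1 point per mouse. *Gm13443*, *Gbp2b* and *Cfi* are CPM plus 0.01 on log axes, *Glo1* and *Gm34829* CPM on linear axes. *Notch3+/+* replicate 8, at 1.37 CPM of *Gm13443* and 83.5 CPM of *Glo1*, lies next to the lowest *Notch3-/-* mouse at 1.90 and 86.8 CPM.

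*Oca2* (ENSMUSG00000030450, chromosome 7) was near absent in most mice and high in 7. In *Notch3+/+* mice it was lowest at 0, median 0.0801 and highest at 0.689 CPM. In *Notch3-/-* mice it was lowest at 0, median 0.0138 and highest at 19.3 CPM, the highest being replicate 8 and the next 0.776 CPM. Counts of 0 in 4 *Notch3-/-* libraries and 1 *Notch3+/+* library allow up to 0.0951 and 0.0937 CPM (3 counts per library, for counting error only). WT mice had a lowest of 0.198, a median of 3.51 and a highest of 22.1 CPM, and Tg*Notch3R169C* mice 0.0836, 0.204 and 12.4 CPM. The high mice were *Notch3-/-* replicate 8, WT replicates 2, 4, 5 and 6 at 6.30, 22.1, 8.27 and 9.88 CPM, and Tg*Notch3R169C* replicates 5 and 8 at 12.4 and 9.98 CPM. The groups ordered WT, Tg*Notch3R169C*, *Notch3+/+* and *Notch3-/-* by their medians, and the ranges of each adjacent pair overlapped. The fitted log2 fold change of WT against *Notch3+/+* mice was 5.10 (SE 1.02). It was 1.22 without the 7 libraries with *Ttr* above 1000 CPM and 1.36 with the mean of 6 choroid plexus markers as a covariate.

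The 7 libraries with the most *Oca2* were the 7 with the most *Ttr*. *Ttr* encodes transthyretin, the major secreted protein of the choroid plexus epithelium. The other 5 choroid plexus markers, *Kl*, *Folr1*, *Clic6*, *Kcne2* and *Slc4a5*, were also highest in those 7 libraries, *Kcne2* at 70.5 to 233 CPM against at most 3.56 CPM elsewhere. The summed level of the 6 markers was 202 to 556 CPM in *Notch3+/+*, 125 to 24922 in *Notch3-/-*, 157 to 25486 in WT and 182 to 14337 in Tg*Notch3R169C* mice. Of the 6, 5 rose and none fell in WT against *Notch3+/+* mice, where 7.92% of all genes tested were called. Fewer cells of a type and less RNA per cell cannot be told apart in bulk samples, and the part of choroid plexus tissue in the *Oca2* difference was not tested.

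**Figure D3:**
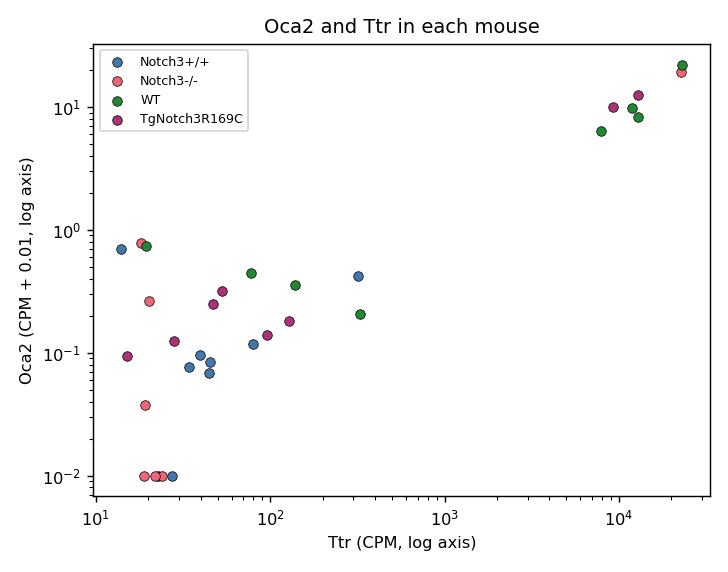
*Oca2* (CPM plus 0.01) against *Ttr* (CPM) in each of the 32 mice, on log axes, coloured by group. The 7 mice with *Ttr* at 7895 CPM or more had *Oca2* at 6.30 CPM or more, and the other 25 had at most 0.776 CPM.

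Pigment cell genes split around *Oca2*. *Slc24a5*, a cation exchanger of the melanosome, was the most alike gene over 32 mice (r = 0.94) and on deviations (r = 0.961), followed by *Fam84b* (r = 0.935) and *Tmprss11a* (r = 0.934), and on deviations by *Cfap298* (r = 0.934) and *Wdpcp* (r = 0.928). *Slc24a5* was 11.7 to 28.9 CPM in the 7 mice and 0.750 to 5.03 CPM in the rest. The 6 melanocyte markers *Tyr*, *Tyrp1*, *Dct*, *Mlana*, *Pmel* and *Slc45a2* were less alike, with r of 0.35 to 0.49 on deviations. The remaining pigment cell genes had r of 0.796 (*Mitf*), 0.42 (*Ednrb*), −0.0405 (*Sox10*), −0.0495 (*Gpr143*) and −0.322 (*Kit*). *Dct*, which acts in melanin synthesis, reached 51.5 CPM in a *Notch3+/+* mouse whose *Oca2* was below that of the 7 mice. Only 3 of the 7 mice highest for *Dct* were among the 7 highest for *Oca2*. The overlap was 4 of 7 for *Tyrp1* and 3 of 7 for *Tyr*, *Mlana*, *Pmel* and *Slc45a2*. The summed level of the 6 melanocyte markers was 0.671 to 98.2 CPM in *Notch3+/+*, 0.687 to 88.2 in *Notch3-/-*, 0.793 to 62.0 in WT and 0.718 to 32.9 in Tg*Notch3R169C* mice, so single mice of every group held them. Among the other 25 mice *Oca2* was highest in *Notch3-/-* replicate 5, WT replicate 8 and *Notch3+/+* replicate 7, at 0.776, 0.723 and 0.689 CPM. Those mice had the highest marker sums of their groups, 88.2, 62.0 and 98.2 CPM. Of the 6 melanocyte markers, 2 passed the count filter in *Notch3-/-* against *Notch3+/+* mice and 4 in each of the other 3 group comparisons. None of those tested was called by edgeR.

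*C130026I21Rik* (ENSMUSG00000052477, chromosome 1) was higher in every 12-month mouse than in any 3-month mouse. Levels were lowest at 0.241, median 0.415 and highest at 0.582 CPM in *Notch3+/+* mice, and 0.294, 0.60 and 0.762 CPM in *Notch3-/-* mice. WT mice had a lowest of 1.16, a median of 1.61 and a highest of 2.63 CPM, and 1.18, 2.09 and 3.22 CPM in Tg*Notch3R169C* mice. The fitted log2 fold change was 2.04 (SE 0.20) for WT against *Notch3+/+* mice and 1.85 (SE 0.20) for Tg*Notch3R169C* against *Notch3-/-* mice. Within cohorts the ranges overlapped, with log2 fold changes of 0.47 (SE 0.20) for *Notch3-/-* and 0.27 (SE 0.20) for Tg*Notch3R169C* against their controls. The order by median was Tg*Notch3R169C*, WT, *Notch3-/-* and *Notch3+/+*, and the step from WT to *Notch3-/-* is the one without overlap.

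The transcripts of *C130026I21Rik* are shared in large part with its neighbours, so its counts are uncertain. They match *Sp140* at 96% identity over 979 bases, *A530032D15Rik* at 97.5% over 924 bases, *Sp110* at 98.6% over 559 bases and *Gm6264* at 99.6% over 228 bases. *A530032D15Rik*, the next tested gene on the chromosome, also was higher in the 12-month mice, at 0.0215 to 0.305 CPM in *Notch3+/+*, 0.0567 to 0.330 in *Notch3-/-*, 0.249 to 0.578 in WT and 0.286 to 0.650 CPM in Tg*Notch3R169C* mice. *A530032D15Rik* rose in Tg*Notch3R169C* against *Notch3-/-* mice by 1.27 (SE 0.27, adjusted p = 0.0138, edgeR) and was below the filter in WT against *Notch3+/+* mice. It had 2 to 12 counts per library in *Notch3-/-* and 7 to 23 in Tg*Notch3R169C* mice. Reads of *C130026I21Rik* could fit it too, so its call is not independent of that selected gene. *Sp100*, 4 tested genes away and the founding gene of the nuclear body family, rose in WT against *Notch3+/+* mice by 0.29 (SE 0.07, adjusted p = 0.0243, edgeR). Neither *Sp110* nor *Sp140* was called in any comparison, with log2 fold changes of 0.09 and 0.05 in WT against *Notch3+/+* mice.

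The genes most like *C130026I21Rik* over 32 mice were *Tcrg-C4* (r = 0.885), a T cell receptor gamma constant gene, *Igf2bp2* (r = −0.863) and *Cxcl13* (r = 0.854), the B cell attracting chemokine. On deviations from group means they were *Serpina3g* (r = 0.695), *Apobec3* (r = 0.685) and *AW112010* (r = 0.642). The summed level of 8 lymphoid cell genes, a list added after values were seen, was 30.0 to 78.7 CPM in *Notch3+/+*, 26.3 to 76.9 in *Notch3-/-*, 49.5 to 595 in WT and 56.8 to 888 in Tg*Notch3R169C* mice. Of these 8 genes 2 rose in WT against *Notch3+/+* mice and 3 in Tg*Notch3R169C* against *Notch3-/-* mice. Over all genes tested, 7.92% and 3.82% were called in those comparisons. The part of the lymphoid cell genes in the level of *C130026I21Rik* was not tested.

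*Olfr1372-ps1* (ENSMUSG00000108218, chromosome 11) was expressed in all mice and differed between cohorts by less than 2-fold. Levels were lowest at 11.9, median 15.03 and highest at 19.8 CPM in *Notch3+/+* mice, and 14.4, 19.6 and 26.9 CPM in *Notch3-/-* mice. In WT mice the lowest was 24.8, the median 28.4 and the highest 34.5 CPM, and 21.8, 26.4 and 28.7 CPM in Tg*Notch3R169C* mice. All 8 WT mice were above all *Notch3+/+* mice, a 1.78-fold difference (log2 fold change 0.83, SE 0.09). Tg*Notch3R169C* against *Notch3-/-* mice gave 0.42 (SE 0.10), with overlapping ranges because of *Notch3-/-* replicate 1 at 26.9 CPM. By median the order was WT, Tg*Notch3R169C*, *Notch3-/-* and *Notch3+/+*, and each adjacent pair overlapped. Its longest annotated transcript has 9812 bases and shares 96.3% identity over 1795 bases with *Olfr1383*, so part of its reads could fit there too. *Gm25266* and *Sdhaf2* match it at 98% identity or more over at least 100 bases.

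Outside the 7 genes, which were left out of these rankings, those most like *Olfr1372-ps1* over 32 mice were again *Tcrg-C4* (r = 0.845), *Igha* (r = 0.83), an immunoglobulin heavy chain gene, and *Crlf2* (r = 0.825). Its level and that of *C130026I21Rik* had r = 0.853 over 32 mice and r = 0.382 on deviations from group means. The genes nearest on deviations were *Kdelr3* (r = 0.713), *Ovgp1* (r = −0.682) and *Cyb5r3* (r = 0.672). Its own chromosome held 2 of the 50 most alike genes, against 7.69% of genes compared.

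*Gm34829* (ENSMUSG00000111610, chromosome 9) was highest in the young controls. It was lowest at 1.89, median 2.31 and highest at 2.93 CPM in *Notch3+/+* mice, and 0.774, 1.30 and 1.64 CPM in *Notch3-/-* mice. In WT mice the lowest was 0.958, the median 1.11 and the highest 1.30 CPM, and 0.900, 1.54 and 1.88 CPM in Tg*Notch3R169C* mice. Every *Notch3+/+* mouse was above every other mouse, and the ranges of the other 3 groups overlapped. The separation from Tg*Notch3R169C* mice was within counting error. *Notch3+/+* replicate 3 was at 1.891 CPM on 70 counts and Tg*Notch3R169C* replicate 3 at 1.881 CPM on 55 counts. The fitted log2 fold change was −0.95 (SE 0.16) for *Notch3-/-* and −1.09 (SE 0.13) for WT, both against *Notch3+/+* mice, which the 2 comparisons share. Tg*Notch3R169C* against WT mice gave 0.44 (SE 0.14).

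The genes most like *Gm34829* over 32 mice were *Adamts8* (r = 0.866, also on chromosome 9 and 455 tested genes away), *Map3k7cl* (r = 0.81) and *Pln* (r = 0.799), which encodes phospholamban, the regulator of the calcium pump of the sarcoplasmic reticulum. On deviations they were *Marveld1* (r = 0.739), *2010111I01Rik* (r = 0.723) and *Tagln* (r = 0.719), the actin-binding protein transgelin. *Pln* was 72.6 to 151 CPM in *Notch3+/+*, 30.2 to 52.6 in *Notch3-/-*, 39.4 to 76.9 in WT and 32.8 to 52.6 CPM in Tg*Notch3R169C* mice.

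The summed level of 6 smooth muscle markers was 1946 to 3486 CPM in *Notch3+/+*, 1289 to 2050 in *Notch3-/-*, 1053 to 1653 in WT and 880 to 1378 CPM in Tg*Notch3R169C* mice. Of the 6 markers, 4 fell in *Notch3-/-* and 6 in WT against *Notch3+/+* mice, and none was called in Tg*Notch3R169C* against WT mice. Over all genes tested, 0.649%, 7.92% and 0.113% were called in the same comparisons. With the mean of the 6 markers as a covariate the log2 fold change of *Gm34829* was −0.27 for *Notch3-/-* and −0.47 for WT against *Notch3+/+* mice. The covariate itself differs between those groups, and its part in the difference was not tested further. The marker sum had a median of 1204 CPM in Tg*Notch3R169C* and 1360 CPM in WT mice, with overlapping ranges. Whether *Gm34829*, which had a log2 fold change of 0.44 (SE 0.14) between these groups, follows the markers there was not tested.

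*Nnt* (ENSMUSG00000025453, chromosome 13) was low and alike in the 4 groups. It was lowest at 0.406, median 0.851 and highest at 1.17 CPM in *Notch3+/+* mice, and 0.531, 0.692 and 1.08 CPM in *Notch3-/-* mice. In WT mice the lowest was 0.720, the median 0.821 and the highest 1.22 CPM, and 0.541, 0.834 and 1.03 CPM in Tg*Notch3R169C* mice. The fitted log2 fold changes were −0.23 (SE 0.19) and −0.18 (SE 0.17) for the mutants against their controls, and 0.14 (SE 0.18) and 0.19 (SE 0.18) between the cohorts. No pair of groups was separated, on 13 or more counts per library. A second Ensembl entry with the symbol *Nnt* had no counts in any library.

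The genes nearest to *Nnt* were *Zfp358* (r = −0.728), *Gm16046* (r = 0.683) and *Nupr1l* (r = 0.68), and on deviations *Gm16046* (r = 0.742), *Zfp358* (r = −0.71) and *C130060C02Rik* (r = 0.691). Of the 12 genes of mitochondrial NADPH and peroxide detoxification, *Gpx4* (0.25, SE 0.07, adjusted p = 0.0347) and *Prdx5* (0.37, SE 0.10, adjusted p = 0.0353), both peroxidases, rose in WT against *Notch3+/+* mice by edgeR. This was 16.7% of the list against 7.92% of all genes tested. No member of the list was called in the other comparisons.

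The neighbours were selected by position alone and were tested. None of the 132 tested neighbours was called in *Notch3-/-* against *Notch3+/+* mice and none of 133 in Tg*Notch3R169C* against WT mice by edgeR, with 13 and 9 at an unadjusted p below 0.05 and 2 and 0 called by DESeq2. In WT against *Notch3+/+* mice 4 of 134 were called, 2.99% against 7.92% of all genes. These were *Pdlim5* near *Gbp2b* (−0.26, adjusted p = 0.0457), *Sp100* near *C130026I21Rik*, and *Fam83b* (−0.68, adjusted p = 0.0281) and *Ooep* (2.76, adjusted p = 0.0125) near *Gm34829*. In Tg*Notch3R169C* against *Notch3-/-* mice 5 of 132 were called, 3.79% against 3.82% of all genes, and all 5 rose.

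Of these 5, 4 lie near *C130026I21Rik*: *Sphkap* (1.08, adjusted p = 0.0105), *Dner* (0.68, adjusted p = 0.0482), *Slc16a14* (0.78, adjusted p = 0.0416) and *A530032D15Rik*, which could share reads with it. *Sphkap* and *Dner* are transcribed in neurons, and the summed level of 6 neuron markers was 132 to 433 CPM in *Notch3-/-* and 269 to 906 CPM in Tg*Notch3R169C* mice. Of those 6 markers none was called (median log2 fold change 0.74), and their part in these calls was not tested. No neighbour of *Oca2*, *Olfr1372-ps1* or *Gm13443* was called in the 4 comparisons by edgeR. Of the 9 neighbour calls, *Pdlim5* was kept in 5, *Dner* in 4 and *Slc16a14* in 4 of 16 fits without 1 mouse, and the others in 15 or 16. Without the libraries with choroid plexus signal *Pdlim5*, *Fam83b*, *Ooep* and *Slc16a14* were not called.

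**Figure D4:**
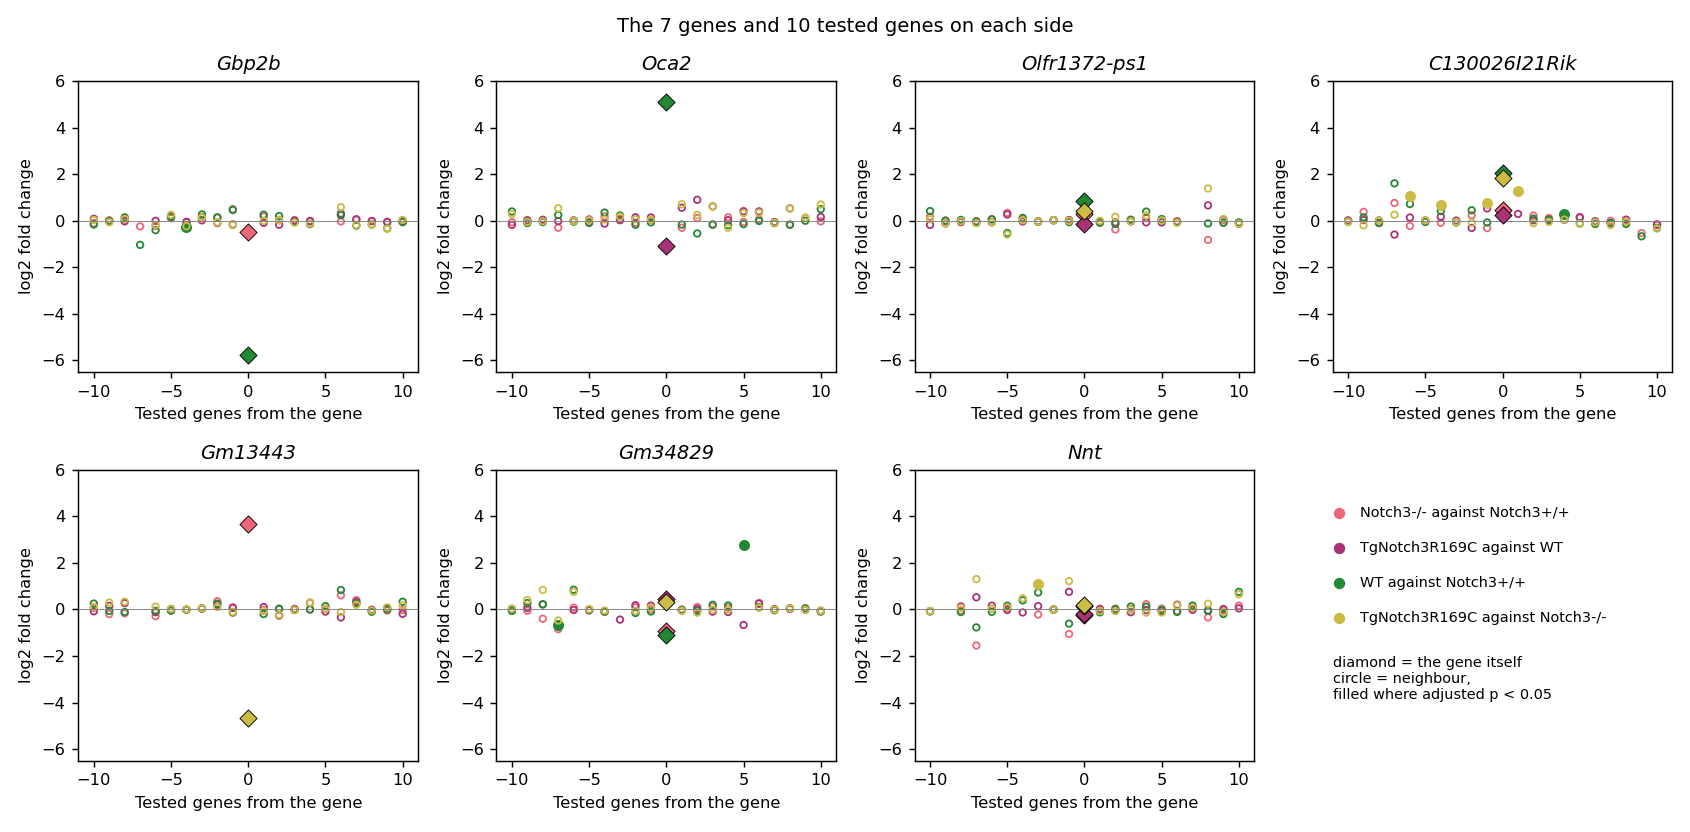
Log2 fold change of each of the 7 genes (diamonds) and of the 10 tested genes on each side (circles, filled where called) in the 4 comparisons, by gene order on the chromosome. *Gbp2b* at −5.75, *Oca2* at 5.10 and *Gm13443* at 3.69 and −4.66 lie outside the range of the neighbours, which run from −1.55 to 2.76 over all 7 genes. *Olfr1372-ps1*, *C130026I21Rik*, *Gm34829* and *Nnt* lie inside it. Beside only its own neighbours in WT against *Notch3+/+* mice, *C130026I21Rik* at 2.04 lies above their highest of 1.61. There *Olfr1372-ps1* at 0.83 lies above 0.415 and *Gm34829* at −1.09 below their lowest of −0.681. *Nnt* at 0.14 lies inside −0.772 to 0.754. The 7 genes were selected for large differences in these libraries and the neighbours were not, so their positions are a description.

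Of the 62 related genes, 3 of 55 tested were called in *Notch3-/-* against *Notch3+/+* mice, all higher, 5.45% against 0.649% of all genes. Because the lists were chosen with earlier results of these data known, such shares are descriptions. The *Glo1* call is also not independent of *Gm13443*, with which it could share reads. Beside *Glo1* they were *Gbp10* (0.87, SE 0.19, adjusted p = 0.0409) and *Ifit1* (0.77, SE 0.16, adjusted p = 0.0319), an interferon-induced antiviral gene. *Gbp10* kept the call in 4 and *Ifit1* in 6 of 16 fits without 1 mouse, and neither was called without the single *Notch3-/-* library with choroid plexus signal, replicate 8. All 10 guanylate-binding proteins tested had positive log2 fold changes there, from 0.13 to 0.87 with a median of 0.22, and 1 passed the test. None of 57 related genes was called in Tg*Notch3R169C* against WT mice by edgeR, with 3 at an unadjusted p below 0.05 and 0 called by DESeq2.

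In WT against *Notch3+/+* mice 10 of 57 related genes were called, all higher, 17.5% against 7.92% of all genes, a description for the same reason. The interferon response list gave 4 of its 10, *Ifit1* (0.77, adjusted p = 0.0163), *Irf7* (0.63, adjusted p = 0.0215), *Ifit3* (0.61, adjusted p = 0.0215) and *Isg15* (0.55, adjusted p = 0.0476). Its summed level was 467 to 593 CPM in *Notch3+/+*, 580 to 955 in *Notch3-/-*, 460 to 1059 in WT and 453 to 797 CPM in Tg*Notch3R169C* mice. *Isg15* kept the call in 4 of 16 fits without 1 mouse and in 3 of 8 other alternatives, and the other 3 in all 16 and in 7 of 8. The pigment cell list gave *Slc24a5* (2.62, adjusted p = 0.0172) and *Sox10* (1.18, adjusted p = 0.0281), which encodes a transcription factor of melanocytes and oligodendrocytes. Of 6 oligodendrocyte markers 3 rose in the same comparison.

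*Sp100*, *Gpx4*, *Prdx5* and *Alad* completed the 10. *Alad*, a heme synthesis gene known for strain differences in copy number, rose by 0.37 (SE 0.07, adjusted p = 0.00359). Without the libraries with choroid plexus signal *Slc24a5*, *Sox10*, *Gpx4*, *Prdx5* and *Alad* were not called. In Tg*Notch3R169C* against *Notch3-/-* mice *Sox10* rose (1.15, adjusted p = 0.0344) and *Glo1* fell. Of the 15 genes known to vary between strains that the table held, 12 were tested, and *Glo1* and *Alad* were those called in any comparison. The other 10, among them the antiviral genes *Apobec3* and *Mx1*, were not called. By the interaction test *Glo1* was the single related gene whose mutant effect differed between cohorts. With the mean of the 6 smooth muscle markers as a covariate, which itself differs between these groups, *Glo1* in Tg*Notch3R169C* against *Notch3-/-* mice (adjusted p = 0.00212, edgeR) was the single call kept of those named here for neighbours and related genes in the 4 comparisons.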

How the data were processed

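For each of 32 libraries the authors deposited unnormalized whole-number counts by Ensembl gene ID. Per the submitters' processing notes, bcl2fastq 2.20.0.422, cutadapt 1.10, Bowtie2 2.2.8, STAR 2.5.3a and HTSeq 0.6.1p1 were used with build mm39; the annotation release is not given in the sources used here. Libraries were stranded and poly(A)-selected. Symbols, chromosomes and gene order came from GENCODE vM21 and promoters from RefSeq, both of GRCm38, so no coordinates are given.

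Comparisons used edgeR 4.0.16 under R 4.3.3 (filterByExpr, TMM, quasi-likelihood test of 2 groups, Benjamini-Hochberg adjusted p below 0.05). The interaction came from a fit of all 4 groups. SE is the log2 fold change over the root of F. CPM uses TMM library sizes, and likeness is the correlation of log2 CPM with a prior count of 2. Transcripts were aligned with BLAST 2.17.0. The test was checked on simulated data. DESeq2 1.42.0 and other alternatives are in the closing section.

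The 7 genes and all lists were chosen with earlier results of these data known. Named genes are the 7, *Notch3*, the 3 most alike to each on either basis, and every neighbour or related gene called, except 1 item that is not reported here. *Acta2*, *Ttr*, *Gbp2*, *Gbp3*, choroid plexus and pigment genes, and list members that did not pass were named beyond that rule, after values were seen. Nothing says that mice of a group came from separate litters, so p-values measure the spread between these mice.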

Additional observations from a re-analysis of the deposited data

Results flagged for a closer look

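Of 28 groups of 8 mice examined, 7 genes in 4 groups, 7 had 1 mouse whose gap to the nearest other exceeded Dixon's critical share of the group's range. That share assumes normally distributed values, and *Gbp2b* and *Oca2* fall into high and low mice, so no chance rate is given. The genes were selected for large differences in these libraries, so the number of such mice is a description and is not evidence of anything beyond that selection. *Gbp2b* in WT replicate 2 was 3.99 CPM against 0.33 CPM for the next mouse, a gap of 0.928 of the range. *Oca2* in *Notch3-/-* replicate 8 was 19.3 CPM against 0.776 CPM, a gap of 0.96, and in WT replicate 4 it was 22.1 against 9.88 CPM, a gap of 0.558. Both *Oca2* mice are among the 7 libraries with *Ttr* above 1000 CPM.

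*Olfr1372-ps1* in *Notch3-/-* replicate 1 was 26.9 CPM against 19.8 CPM (0.567), and in WT replicate 2 it was 34.5 against 29.0 CPM (0.562). *Gm13443* in *Notch3+/+* replicate 8 was 1.37 CPM against 0.172 CPM (0.919). *Nnt* in *Notch3-/-* replicate 2 was 1.08 CPM against 0.744 CPM (0.612). WT replicate 2 thus appears for *Gbp2b* and *Olfr1372-ps1*. *Gbp2b* in the 3-month groups was not singled out in this way, because several mice of each group were low together.

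The mutant effects of the 2 cohorts differed for *Glo1*, by −0.952 on the log2 scale in the interaction test, with a rise of 0.84 in *Notch3-/-* mice and −0.12 in Tg*Notch3R169C* mice. *Glo1* was listed with earlier results of these data known. It could share reads with the selected gene *Gm13443*, so this result is not independent of that selection. The rise in *Notch3-/-* mice was not called with the smooth muscle covariate.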

How the results depend on the processing

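Among the counts of called neighbours and related genes, 50 values under alternatives other than leaving out 1 mouse stayed within 1.5 times the reported count and 17 did not. The log2 fold change of *Gbp2b* in *Notch3-/-* against *Notch3+/+* mice turned from −0.47 to 0.58 with the smooth muscle covariate, also added after the data were seen. With DESeq2 the neighbours called were 2 in *Notch3-/-* against *Notch3+/+* mice, 14 in WT against *Notch3+/+* mice and 11 in Tg*Notch3R169C* against *Notch3-/-* mice, and 10 related genes were called in the first. With 20 genes on each side the neighbours called were 2, 18 and 8 in the same 3 comparisons. Without the count filter they were 1 in WT against *Notch3+/+* mice and 3 in Tg*Notch3R169C* against *Notch3-/-* mice, and with all 4 groups in 1 fit 9 in WT against *Notch3+/+* mice. With the choroid plexus markers as a covariate, added after the data were seen, 1 neighbour and 4 related genes were called in WT against *Notch3+/+* mice and 1 related gene in Tg*Notch3R169C* against *Notch3-/-* mice. Without the 7 libraries with choroid plexus signal, 1 related gene was called in *Notch3-/-* against *Notch3+/+* mice.

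Whether replicate numbers pair the mice was not settled. Correlations of same-numbered deviations ran from −0.247 to 0.494, and differently numbered mice were not compared. Of 8 pairs, 4 exceeded 0.1 in each mutant against control comparison and 3 in WT against *Notch3+/+* mice. In Tg*Notch3R169C* against *Notch3-/-* mice 6 did, with all 8 from 0.0504 to 0.494. Both comparisons between the cohorts set mice of different age and line side by side, so same numbers there cannot mark littermates. With the replicate block 1 related gene was called in *Notch3-/-* against *Notch3+/+* mice, 1 neighbour in WT against *Notch3+/+* mice, and 2 genes in the interaction. Leaving out 1 mouse at a time gave 0 to 1 neighbours and 1 to 6 related genes in *Notch3-/-* against *Notch3+/+* mice, 0 neighbours and 0 to 1 related genes in Tg*Notch3R169C* against WT mice, 1 to 10 and 6 to 11 in WT against *Notch3+/+* mice, and 3 to 7 and 1 to 2 in Tg*Notch3R169C* against *Notch3-/-* mice. Over all genes DESeq2 called 280, 74, 2350 and 1748 in the 4 comparisons, against 115, 20, 1398 and 682. All genes called in WT against *Notch3+/+* mice were 265 with the choroid plexus covariate, 402 without those libraries and 715 with the replicate block, and in Tg*Notch3R169C* against WT mice 10, 2 and 6. The causes were not tested. Low counts limit the fold changes of *Gm13443*, with 1 to 9 counts per library in WT and Tg*Notch3R169C* mice, and of *Oca2*, with 0 to 20 in *Notch3+/+* mice.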
